A study of Mus musculus with 4 samples.

Results

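The genes described are those of the mitochondrial ribosomal proteins, taken as the rows of the deposited expression table whose symbol is Mrpl or Mrps followed by a number and, in some, a letter, without pseudogene symbols and with a mean normalised read count of at least 10 over the libraries. The rule found 76 members among 25259 genes, 47 Mrpl genes of the large subunit series and 29 Mrps genes of the small subunit series, and every gene that matched the symbol pattern passed the minimum. The rule used no difference between groups. The study measured mRNA-enriched RNA in laser-captured striatum of 8-week-old C57BL/6 mice, which carried 2 copies of a humanised Foxp2 (Foxp2hum/hum) or were wild-type. There were 12 libraries of Foxp2hum/hum dorsomedial striatum (DMS), 11 of wild-type DMS, 12 of Foxp2hum/hum dorsolateral striatum (DLS) and 11 of wild-type DLS, 46 in all. About 15 ng of total RNA went into each library. Foxp2 encodes a forkhead transcription factor made in striatal projection neurons, and the series title places the comparison in the setting of declarative and procedural learning. No label says which mouse a library came from, so p-values measure the spread between libraries, and libraries of the 2 regions may share a mouse.

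Mitochondrial ribosomes translate the few proteins that mitochondrial DNA encodes, which are subunits of the respiratory chain and of ATP synthase. The ribosomal RNAs are encoded in the mitochondrion, but every ribosomal protein is encoded in the nucleus, made in the cytosol and imported. Many of them are homologues of bacterial ribosomal proteins with the same number, and others are found only in mitochondria. The symbols follow the subunit in which a protein was first placed, and some have since moved: Mrps30 and Mrps18a belong to the large subunit in mammalian structures, and Mrps36 is now assigned to the 2-oxoglutarate dehydrogenase complex.

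The promoters of 67 of the 76 members were matched by symbol in RefSeq (GRCm38.p6); Mrpl4, Mrpl13, Mrpl15, Mrpl19, Mrpl38, Mrpl54, Mrps28, Mrps34 and Mrps35 were not matched. The windows ran from 250 bases before to 50 after the annotated start and were searched on both strands for 3 short motifs of factors known to bind promoters of nuclear genes for mitochondrial proteins. The core GCGCATGC, bound by NRF1, was in 8 member windows (11.9%), against 4.99% of the 10711 windows of genes tested here and 2.80% of all 27025 windows. An ETS core, CCGGAAGT, bound by GABPA, was in 11 member windows (16.4%), against 7.20% of tested genes and 4.0% of all. The YY1 core AAGATGGC was in 12 member windows (17.9%), against 4.17% of tested genes and 2.88% of all. At least 1 of the 3 was in 28 member windows (41.8%), against 15.3% of tested genes and 9.15% of all. The median GC content was 58% in member windows, 60.7% in those of tested genes and 52.7% in all. These are descriptions of letters, and the members were a set of related genes, so no test was made. The 250 bases before the start are printed for 4 members, with motif matches in capitals. Mrpl16 (chr19:11770165-11770414, plus strand) and Mrps2 (chr2:28467816-28468065, plus strand) differed between regions and held none of the motifs. Mrpl32 (chr13:14613038-14613287, minus strand) held 4 NRF1 matches, 2 of which overlap in 1 palindromic run, and a YY1 match. Mrps11 (chr7:78782881-78783130, plus strand) held a YY1 match at 107 bases before its start and shares its start region with Mrpl46, which is read from the other strand.
Mrpl16: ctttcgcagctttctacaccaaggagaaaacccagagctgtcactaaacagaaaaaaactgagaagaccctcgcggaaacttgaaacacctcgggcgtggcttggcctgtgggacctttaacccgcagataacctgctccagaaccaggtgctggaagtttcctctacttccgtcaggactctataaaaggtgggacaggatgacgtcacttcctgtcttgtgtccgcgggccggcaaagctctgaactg
Mrps2: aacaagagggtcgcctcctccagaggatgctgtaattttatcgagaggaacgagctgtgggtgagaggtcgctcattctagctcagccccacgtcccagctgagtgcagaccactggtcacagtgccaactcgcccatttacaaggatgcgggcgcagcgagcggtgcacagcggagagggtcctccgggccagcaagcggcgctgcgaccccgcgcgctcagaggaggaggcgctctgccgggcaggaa
Mrpl32: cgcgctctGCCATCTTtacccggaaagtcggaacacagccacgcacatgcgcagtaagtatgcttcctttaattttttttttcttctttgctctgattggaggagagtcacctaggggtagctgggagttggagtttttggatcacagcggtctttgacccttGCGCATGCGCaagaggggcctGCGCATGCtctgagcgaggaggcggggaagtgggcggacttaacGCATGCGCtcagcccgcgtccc
Mrps11: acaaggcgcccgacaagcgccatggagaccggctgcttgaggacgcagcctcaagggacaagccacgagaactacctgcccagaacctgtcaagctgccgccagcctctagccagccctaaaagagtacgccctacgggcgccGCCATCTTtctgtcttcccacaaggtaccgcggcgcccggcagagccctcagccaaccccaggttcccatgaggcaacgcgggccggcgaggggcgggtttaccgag

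Such paired starts were common among the members. Within 1000 bp of their own start, 28 of 76 members (36.8%) had the start of a protein-coding gene on the opposite strand, against 12.9% of 17996 protein-coding genes placed on the same annotation. Those 17996 were counted whatever their level here, and the share among the genes tested was not computed. The partners included Tcp1 beside Mrpl18 (a chaperonin subunit), Fau beside Mrpl49 (a cytosolic ribosomal protein gene), Ndufb5 beside Mrpl47 (a complex I subunit) and Sars2 beside Mrps12 (the mitochondrial seryl-tRNA synthetase). The members lay on 17 chromosomes, with at most 10 on 1 chromosome (chromosome 11). Their values can hold reads of genes that overlap them, since the deposited values appear to count reads over whole gene spans without regard to strand: in 16 pairs where a member lies within another gene or another gene within a member, the inner gene was above the outer one in 0 of the 46 libraries. Of the members, 47 had no overlapping gene worth 10% or more of their own value, and 23 had an overlapping gene worth at least 50% of it. The 23 were Mrpl2 (which lies within Gm16736), Mrpl14, Mrpl17, Mrpl18, Mrpl24, Mrpl33, Mrpl43, Mrpl44, Mrpl46, Mrpl47, Mrpl48, Mrpl49, Mrpl53, Mrps6, Mrps7, Mrps11, Mrps18a, Mrps18b, Mrps24, Mrps25, Mrps26, Mrps28 and Mrps34. How many of the partner's reads fall in the shared stretch is not known, and it was as short as 8 bp for Mrps26.

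Every member was detected in every library. The lowest single value was 66.9 normalised read counts (54 reads), for Mrpl14 in a Foxp2hum/hum DLS library, and the means over all libraries ran from 146 for Mrpl14 to 1356 for Mrps33, with a median of 443. Per kb of annotated exon, the highest mean levels over the 46 libraries were those of Mrpl52 (1202 normalised read counts per kb), Mrpl42 (1184), Mrps33 (1097), Mrpl41 (818), Mrps28 (732) and Mrpl20 (672). Mrpl52, Mrpl42 and Mrpl41 are large-subunit proteins without a bacterial counterpart, Mrps33 is a small-subunit protein of the same kind, and Mrpl20 is a homologue of bacterial L20. The lowest were Mrps10 (33.2 per kb), Mrps35 (41.8), Mrpl1 (59.2), Mrps5 (63.6), Mrpl15 (73.6) and Mrpl19 (76.3), of which Mrps10, Mrps5, Mrpl1, Mrpl15 and Mrpl19 are homologues of bacterial proteins. Exonic length is only one way to scale them, and per kb of whole gene span Mrpl41 ranked 1 of 76, Mrps28 ranked 74 and Mrpl42 ranked 54.

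The order of levels per kb of exon changed little between groups. Mrpl52 averaged 1328 ± 304 per kb in Foxp2hum/hum DMS, 1301 ± 305 in wild-type DMS, 1135 ± 360 in Foxp2hum/hum DLS and 1036 ± 344 in wild-type DLS (SD, n = 12, 11, 12 and 11). Mrpl42 averaged 1217 ± 309 per kb in Foxp2hum/hum DMS, 1008 ± 197 in wild-type DMS, 1378 ± 369 in Foxp2hum/hum DLS and 1111 ± 375 in wild-type DLS. Mrpl52 thus stood first in both DMS groups and Mrpl42 first in both DLS groups, but the SDs of these neighbours overlapped in every group, as did those of Mrps33. At the other end, Mrps10 was last in all 4 groups, at 33.2 ± 8.1, 30.2 ± 4.9, 37.7 ± 12.6 and 31.4 ± 5.3 per kb in the same order, and its SDs overlapped those of Mrps35 in every group. The 3 paralogues that share a number and are told apart by a letter differed in level: over all libraries Mrps18c stood at 373 per kb of exon, Mrps18a at 169 and Mrps18b at 144. Per kb of gene span Mrps18c was again highest, at 68.6, but Mrps18b stood at 50 and Mrps18a at 34.8, and overlapping genes are worth 286% of the value of Mrps18b and 97.6% of that of Mrps18a, so the order of these 2 is uncertain. None of the 3 passed in any comparison of groups (limma, smallest adjusted p 0.54 for Mrps18c between DMS and DLS of wild-type mice). For 3 members the deposited table also listed pseudogenes, Mrps36-ps1 (mean 340), Mrps36-ps2 (166), Mrpl23-ps1 (649) and Mrpl48-ps (175), so the split of reads between Mrps36, Mrpl23 or Mrpl48 and these copies is uncertain.

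**Figure D1:**
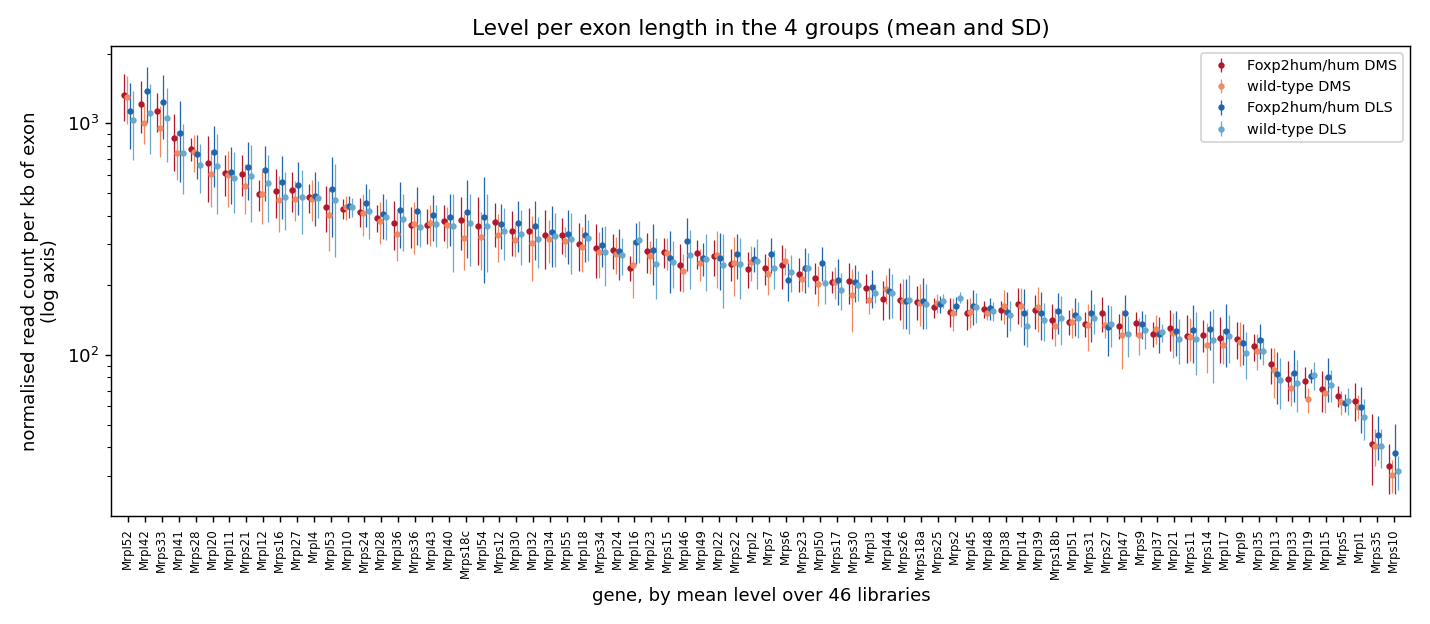
Mean normalised read count per kb of annotated exon (log axis) of the 76 members, with SD bars, in Foxp2hum/hum DMS, wild-type DMS, Foxp2hum/hum DLS and wild-type DLS. The members run from Mrpl52 at 1202 per kb to Mrps10 at 33.2 per kb over all libraries, and Mrps10 is last in all 4 groups.

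Libraries held 16.8 to 41 M reads summed over genes. The members took a mean of 0.212% of the reads that were not mitochondrially encoded in Foxp2hum/hum DMS, 0.197% in wild-type DMS, 0.203% in Foxp2hum/hum DLS and 0.192% in wild-type DLS. Library 72 of wild-type DMS, at 0.0855%, and library 70 of wild-type DLS, at 0.107%, were the lowest (numbers as in the deposited table). The mean of log2(normalised read count + 1) over the members was 8.74 ± 0.19 in Foxp2hum/hum DMS, 8.67 ± 0.20 in wild-type DMS, 8.79 ± 0.30 in Foxp2hum/hum DLS and 8.68 ± 0.28 in wild-type DLS, and the ranges of all 4 groups overlapped. Mitochondrially encoded transcripts took 22.4% ± 3.8 of reads in Foxp2hum/hum DMS, 20.2% ± 4.2 in wild-type DMS, 24.8% ± 2.9 in Foxp2hum/hum DLS and 22.7% ± 3.6 in wild-type DLS.

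**Figure D2:**
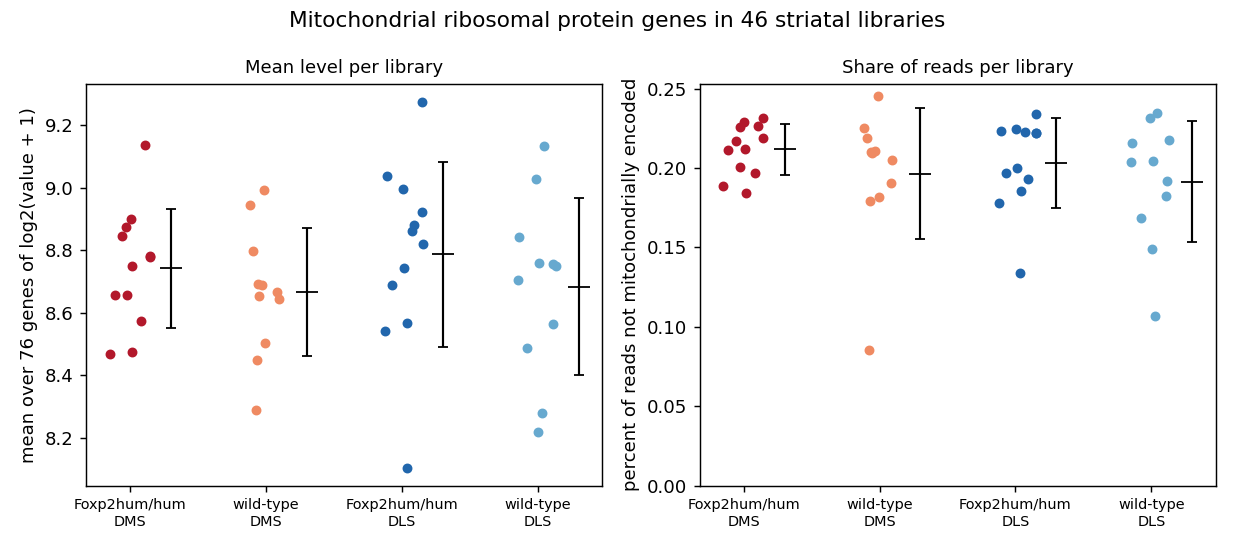
Left, mean over the 76 members of log2(normalised read count + 1) in each library; right, their share of the reads that are not mitochondrially encoded, in percent. Points are libraries, and the black marks give mean and SD of each group; the groups overlap in both panels, and library 72 of wild-type DMS and library 70 of wild-type DLS have the lowest shares, 0.0855% and 0.107%.

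The main question of the design was whether the humanised allele changes transcript levels in each region. In DMS, 0 of 76 members passed between Foxp2hum/hum and wild-type mice in limma at an adjusted p under 0.05, and 0.0% of the 19561 genes tested passed. At an unadjusted p under 0.05, 2 members were higher and 0 lower, against 1.99% of all genes that were higher, and edgeR and DESeq2 on recovered reads also gave 0 calls and 2 members at that unadjusted level. Of the members, 65 had a positive difference (34 with the mitochondrially encoded share as a covariate), with a median of 0.07 on the log2 scale (1.05-fold), against a median of 0.0004 over all genes tested. The 95% intervals of 74 members (97.4%) lay within a change of 1.5-fold in either direction, against 71.7% of all genes tested. The median SE was 0.13 over the members and 0.15 over all genes. In bulk tissue, fewer cells of a type and less RNA per cell cannot be told apart.

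Mrpl19, a homologue of bacterial L19 in the large subunit, had the smallest p in DMS. Its normalised read counts ran from 320 through a median of 401 to 527 in Foxp2hum/hum DMS, and from 272 through 348 to 406 in wild-type DMS. Foxp2hum/hum libraries were thus higher as a group, with overlap between 320 and 406. The log2 difference was 0.26 ± 0.08 (SE; 1.2-fold), with an unadjusted p of 0.00248 and an adjusted p of 0.955 in limma. Mrpl3, a homologue of bacterial L3 in the large subunit, was the other: it averaged 697 ± 98.1 in Foxp2hum/hum DMS and 614 ± 75 in wild-type DMS, a log2 difference of 0.18 ± 0.09 (adjusted p 0.955). The next members by p were Mrps9, Mrps30 and Mrpl42, with log2 differences of 0.18, 0.24 and 0.26. On the negative side the smallest p values were those of Mrpl44, an RNase III-like protein of the large subunit (log2 -0.15 ± 0.12), Mrps25 (-0.06 ± 0.06), Mrpl2 (-0.09 ± 0.11), Mrpl37 (-0.07 ± 0.08) and Mrps6 (-0.08 ± 0.12).

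In DLS, 0 of 76 members passed between Foxp2hum/hum and wild-type mice, and 0.0% of all genes passed in limma. At an unadjusted p under 0.05, 3 members were higher and 0 lower, against 1.98% of all genes that were higher. Among the members, edgeR and DESeq2 each gave 0 calls and 3 higher at that unadjusted level. Over all genes, DESeq2 called 1 higher and 2 lower, and limma with array weights called 1 lower. The median log2 difference was 0.11 (1.08-fold), with 65 members positive (47 with that covariate), against -0.01 over all genes. The intervals of 73 members (96.1%) lay within 1.5-fold, against 70.1% of all genes. The 3 members were all of the large subunit. Mrpl50 ran from 403 through a median of 508 to 718 in Foxp2hum/hum DLS, and from 317 through 435 to 578 in wild-type DLS. These ranges overlapped between 403 and 578, and the log2 difference was 0.30 ± 0.10 (unadjusted p 0.00594, adjusted p 0.843 in limma). Mrpl47, a homologue of bacterial L29, averaged 520 ± 99.1 in Foxp2hum/hum DLS and 420 ± 83.6 in wild-type DLS (log2 0.31 ± 0.13). Mrpl42 averaged 918 ± 246 in Foxp2hum/hum DLS and 740 ± 249 in wild-type DLS (log2 0.32 ± 0.15). The next 2 were Mrps7 (log2 0.20 ± 0.11) and Mrps10 (0.21 ± 0.14). On the negative side stood Mrps2 (log2 -0.12 ± 0.08), Mrps6 (-0.13 ± 0.12), Mrps25 (-0.04 ± 0.06), Mrps27 (-0.05 ± 0.11) and Mrpl37 (-0.03 ± 0.08).

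Averaged over the regions, 0 of 76 members passed between Foxp2hum/hum and wild-type mice, and 0.0% of all genes passed in limma. At an unadjusted p under 0.05, 6 members were higher and 0 lower, against 4.2% of all genes that were higher, and the numbers were 7 in edgeR and 8 in DESeq2, again with 0 calls. The 6 were Mrpl42 (log2 0.29 ± 0.10), Mrpl50 (0.20 ± 0.07), Mrpl47 (0.25 ± 0.09), Mrpl19 (0.13 ± 0.06), Mrps33 (0.26 ± 0.12) and Mrps9 (0.13 ± 0.07), with adjusted p from 0.574 to 0.575. The smallest p values on the negative side were those of Mrps6 (log2 -0.10 ± 0.08), Mrps25 (-0.05 ± 0.04), Mrps2 (-0.05 ± 0.06), Mrpl37 (-0.05 ± 0.06) and Mrpl44 (-0.06 ± 0.09). In this comparison 66 members were positive (39 with that covariate), with a median log2 difference of 0.09 (1.06-fold). The intervals of all 76 lay within 1.5-fold, against 84.4% of all genes. The small positive medians moved with measures of the libraries. With the mitochondrially encoded share as a covariate the median was -0.01 in DMS, 0.02 in DLS and 0.00 averaged. Without libraries 70 and 72 it was 0.03 in DMS, 0.07 in DLS and 0.05 averaged. Both are wild-type libraries with the lowest shares of member reads, so leaving them out was bound to raise the wild-type means. Without library 94 of Foxp2hum/hum DLS, which had the lowest mean log2 level of the members, the median was 0.175 in DLS and 0.123 averaged. With libraries scaled to reads not mitochondrially encoded it was 0.14 in DMS (73 members positive), 0.10 in DLS (65) and 0.12 averaged (71), where the medians over all genes were 0.07, -0.01 and 0.03. With Ttr as a covariate it was 0.09 in DMS, 0.12 in DLS and 0.11 averaged. The difference in mitochondrially encoded share between genotypes is given above, and which of these measures the medians follow was not tested.

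The interaction asks whether the genotype difference in DMS differs from that in DLS. No member passed (0 of 76), and 0.0% of all genes passed in limma. At an unadjusted p under 0.05, 1 member was higher, against 0.925% of all genes that were higher, and edgeR and DESeq2 likewise gave 0 calls and 1 member. That member was Mrpl19, with a log2 interaction of 0.26 ± 0.11 (unadjusted p 0.0261, adjusted p 0.9999 in limma). The other members with the smallest p on the positive side were Mrps2 (log2 0.15 ± 0.11), Mrps27 (0.21 ± 0.16), Mrps5 (0.11 ± 0.10) and Mrps30 (0.19 ± 0.18). On the negative side they were Mrpl50 (log2 -0.19 ± 0.15), Mrpl44 (-0.19 ± 0.17), Mrpl2 (-0.16 ± 0.16), Mrps36 (-0.18 ± 0.20) and Mrps35 (-0.16 ± 0.19). The median interaction was -0.03 on the log2 scale, with 28 members positive. The intervals of 69 members (90.8%) lay within 1.5-fold, against 57.7% of all genes.

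**Figure D3:**
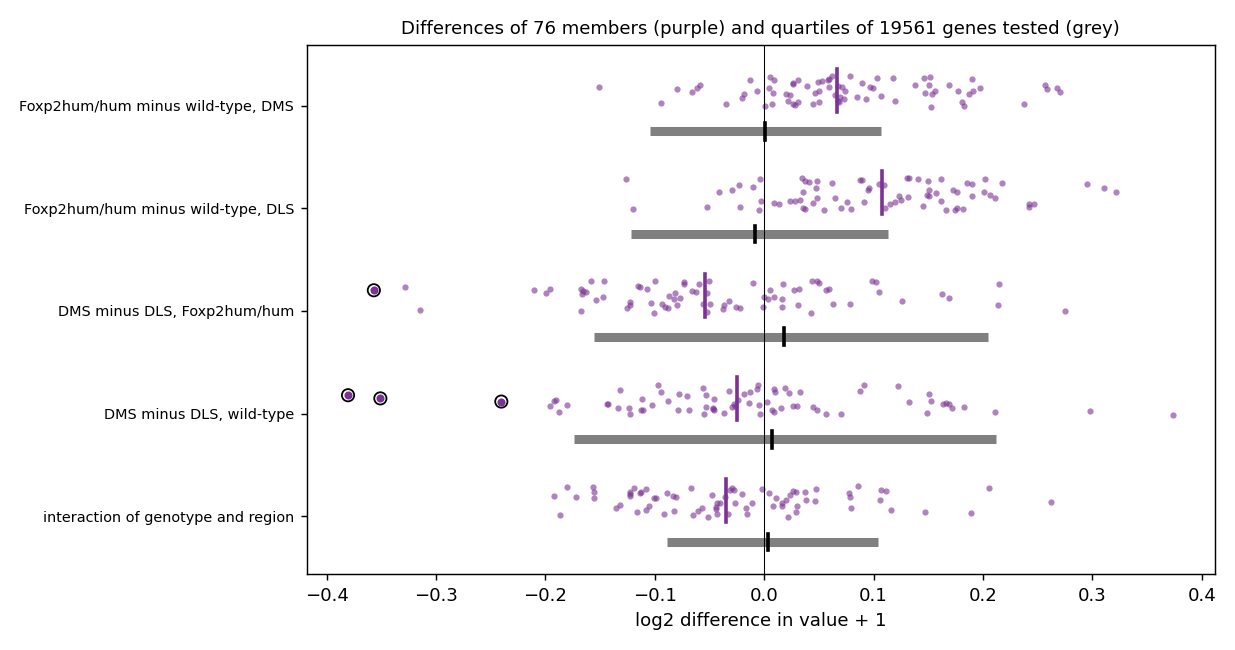
Log2 difference in normalised read count + 1 of each of the 76 members (purple points; purple bar, their median) and the quartiles of all 19561 genes tested (grey bar; black mark, their median) in 5 comparisons. Circles mark members that passed at an adjusted p under 0.05 in limma, 1 between regions in Foxp2hum/hum mice and 3 in wild-type mice; 65 members lie right of 0 in each genotype comparison, a count that was 34 in DMS and 47 in DLS with the mitochondrially encoded share as a covariate.

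Between the regions few members passed, and those that did were lower in DMS, except that with the mitochondrially encoded share as a covariate 4 passed in wild-type mice, of which 2 were higher in DMS. In Foxp2hum/hum mice, 1 of 76 members passed between DMS and DLS, and it was lower in DMS, where 18.1% of all genes passed in either direction and 8.82% were lower. In wild-type mice, 3 of 76 members passed, all lower in DMS, where 17.3% of all genes passed and 8.72% were lower. The median log2 difference over the members was -0.05 in Foxp2hum/hum and -0.03 in wild-type mice, with 26 and 30 members positive, against 0.02 and 0.01 over all genes. The sign of these medians turned under other scalings and covariates: with libraries scaled to reads not mitochondrially encoded they were 0.07 and 0.02 (all genes 0.14 and 0.05), with Ttr as a covariate 0.03 and 0.03, and with the mitochondrially encoded share as a covariate 0.04 and 0.07. The members that passed as higher in wild-type DMS with that last covariate were Mrpl52 (log2 0.51, adjusted p 0.0192 in limma) and Mrps28 (log2 0.30, adjusted p 0.0412), beside Mrpl19 and Mrps2 as lower; in Foxp2hum/hum mice 0 passed in that fit.

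Mrpl19 was lower in DMS of wild-type mice. Its normalised read counts ran from 272 through a median of 348 to 406 in wild-type DMS, and from 359 through 442 to 540 in wild-type DLS. These groups overlapped only between 359 and 406. The log2 difference was -0.35 ± 0.08 (0.784-fold; adjusted p 0.00134 in limma). In Foxp2hum/hum mice its counts ran from 320 through 401 to 527 in DMS and from 383 through 444 to 505 in DLS, so the DMS range enclosed the DLS range, with a log2 difference of -0.09 ± 0.08 (adjusted p 0.502). In DLS the genotypes overlapped (log2 -0.004 ± 0.08), and the 4 group means were 420 ± 65.1 in Foxp2hum/hum DMS, 350 ± 44.2 in wild-type DMS, 443 ± 32.7 in Foxp2hum/hum DLS and 447 ± 60.7 in wild-type DLS. The regional difference in wild-type mice and the genotype difference in DMS share the wild-type DMS libraries, and the interaction above, which tests whether the regional difference depends on genotype, did not pass. The wild-type call held in all 46 fits that left out 1 library (adjusted p up to 0.00423) and was lost in 1 of 13 other alternatives, with libraries scaled to reads not mitochondrially encoded (log2 -0.30, adjusted p 0.102). Mrpl19 overlaps AW146020 on the opposite strand over 2065 bp, and AW146020 has 35% of its value. AW146020 itself averaged 151 ± 28.9 in Foxp2hum/hum DMS, 146 ± 29.3 in wild-type DMS, 142 ± 21.5 in Foxp2hum/hum DLS and 143 ± 43.1 in wild-type DLS.

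Mrpl16, whose bacterial homologue lies near the peptidyl transferase centre of the large subunit, was lower in DMS in both genotypes. Its normalised read counts ran from 217 through a median of 269 to 320 in Foxp2hum/hum DMS, and from 238 through 362 to 469 in Foxp2hum/hum DLS. In wild-type mice they ran from 157 through 280 to 397 in DMS and from 223 through 390 to 432 in DLS. The DMS libraries were lower as a group, and the ranges overlapped in both genotypes, over 238 to 320 in Foxp2hum/hum and over 223 to 397 in wild-type mice. The log2 difference was -0.36 ± 0.13 in Foxp2hum/hum mice (0.781-fold; adjusted p 0.0451) and -0.38 ± 0.13 in wild-type mice (0.768-fold; adjusted p 0.0418), and the test of a difference between genotypes did not pass (log2 interaction 0.02 ± 0.19, adjusted p 0.9999). Both calls lie close to the threshold. The Foxp2hum/hum call was lost in 4 of 13 alternatives (adjusted p up to 0.342) and when any 1 of 15 libraries was left out (adjusted p up to 0.0896): 4, 41, 45, 67, 80, 84 and 87 of DMS and 11, 22, 33, 42, 46, 48, 60 and 61 of DLS. The wild-type call was lost in 5 of 13 alternatives (adjusted p up to 0.209) and when any 1 of 14 libraries was left out (adjusted p up to 0.112): 24, 34, 56, 72, 76 and 93 of DMS and 14, 26, 38, 43, 44, 51, 58 and 86 of DLS. The log2 difference itself stayed between -0.41 and -0.23 in Foxp2hum/hum mice and between -0.43 and -0.32 in wild-type mice over the alternatives, and between -0.41 and -0.32 in Foxp2hum/hum and between -0.45 and -0.30 in wild-type mice with 1 library left out.

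Mrps2, a homologue of bacterial S2 in the small subunit, was lower in DMS of wild-type mice. Its normalised read counts ran from 289 through a median of 435 to 553 in wild-type DMS, and from 469 through 519 to 558 in wild-type DLS. The wild-type DLS libraries were the most even and stood above 469, while the wild-type DMS libraries spread around and below them. The log2 difference was -0.24 ± 0.08 (0.847-fold; adjusted p 0.0328 in limma). In Foxp2hum/hum mice Mrps2 averaged 449 ± 63.3 in DMS and 476 ± 42.7 in DLS, a log2 difference of -0.09 ± 0.08 that did not pass (adjusted p 0.464). The wild-type call was lost when any 1 of 7 libraries was left out (18, 24, 56 and 65 of DMS, and 26, 70 and 89 of DLS, with adjusted p up to 0.0942), and in 3 of 13 alternatives, among them Ttr as a covariate (adjusted p 0.291). Its log2 difference ran from -0.30 to -0.15 over the alternatives and from -0.27 to -0.18 with 1 library left out. Neither Mrpl16 nor Mrps2 overlaps another annotated gene.

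**Figure D4:**
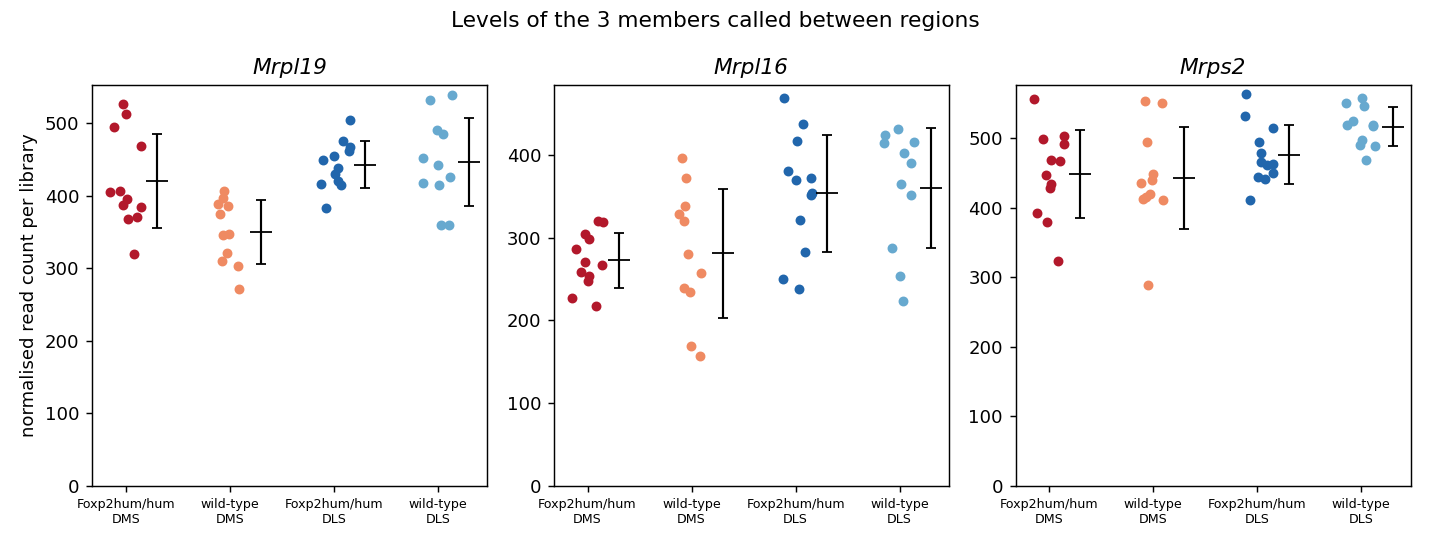
Normalised read count of Mrpl19, Mrpl16 and Mrps2 in each library of Foxp2hum/hum DMS, wild-type DMS, Foxp2hum/hum DLS and wild-type DLS (points), with mean and SD (black). For Mrpl19 the wild-type DMS libraries reach 406 at most, below the means of the other 3 groups. For Mrpl16 the means of both DMS groups lie below those of both DLS groups, while the ranges overlap.

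Of the members that did not pass between regions, those with the smallest p on the lower side in Foxp2hum/hum mice were Mrpl46 (log2 -0.33 ± 0.14), Mrpl12, which is present in several copies in the stalk of the large subunit (-0.31 ± 0.15), Mrpl50 (-0.21 ± 0.10) and Mrps7 (-0.20 ± 0.11). On the higher side they were Mrps27 (log2 0.22 ± 0.11), Mrps6 (0.21 ± 0.11), Mrpl52 (0.27 ± 0.17), Mrps5 (0.10 ± 0.07) and Mrpl13 (0.17 ± 0.13), with adjusted p from 0.194 up. In wild-type mice Mrps30 (log2 -0.19 ± 0.13) and Mrpl46 (-0.20 ± 0.14) followed on the lower side. Mrpl14 (log2 0.30 ± 0.14), Mrpl52 (0.37 ± 0.18), Mrps28 (0.21 ± 0.12), Mrpl39 (0.18 ± 0.12) and Mrpl1 (0.17 ± 0.12) led the higher side, with adjusted p from 0.142 up. The intervals of 72 members in Foxp2hum/hum and of 74 members in wild-type mice lay within 1.5-fold (94.7% and 97.4%). Over all genes the shares were 60.5% and 57.2%.

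The dissected regions also differed in markers of other cells. Of 8 striatal projection neuron markers, 6 were lower in DMS in both genotypes, and their summed normalised read count ran from 75703 to 108301 in Foxp2hum/hum DMS, against 107027 to 146524 in Foxp2hum/hum DLS, and from 88598 to 104799 in wild-type DMS, against 126003 to 149274 in wild-type DLS. All 4 ependymal markers were higher in DMS in both genotypes, with a sum of 285 to 1116 in Foxp2hum/hum DMS, against 51.3 to 179 in Foxp2hum/hum DLS, and of 195 to 1167 in wild-type DMS, against 43.7 to 94.3 in wild-type DLS. Of 7 choroid plexus markers, 3 of the 4 that could be tested were higher in DMS, their sum ran from 224 to 6771 in Foxp2hum/hum DMS, against 90.9 to 246 in Foxp2hum/hum DLS, and from 194 to 10555 in wild-type DMS, against 111 to 320 in wild-type DLS, and Ttr was at 0 in some DLS libraries. All 4 neuroblast markers were higher in DMS in both genotypes, with a sum of 319 to 1596 in Foxp2hum/hum DMS, against 98.5 to 224 in Foxp2hum/hum DLS, and of 424 to 1313 in wild-type DMS, against 97.1 to 227 in wild-type DLS. Of 5 astrocyte markers, 2 were higher in DMS in both genotypes, while their sums overlapped, at 7165 to 11390 in Foxp2hum/hum DMS, against 6767 to 11913 in Foxp2hum/hum DLS, and at 7494 to 10864 in wild-type DMS, against 6547 to 9835 in wild-type DLS. No marker of the 9 cell types passed between genotypes (limma). With Ttr as a covariate, Mrpl19 passed in wild-type mice (log2 -0.31, adjusted p 0.0159 in limma). Mrpl16 did not pass in that fit, with log2 differences of -0.41 in Foxp2hum/hum (adjusted p 0.107) and -0.42 in wild-type mice (adjusted p 0.0618) that were no smaller than without the covariate, and Mrps2 did not pass at a log2 difference of -0.15 in wild-type mice (adjusted p 0.291); the part of the other cell types was not tested.

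Within a group, the members moved together from library to library. Over the 46 libraries, with each library's group mean removed, the median Pearson r over the 2850 pairs of members was 0.61 and 93.2% of pairs were positive, while the median over pairs of all genes tested was near 0. These are descriptions over libraries that share preparation and scaling, so no p is given. The median r of a member with the mean of the others was 0.82, and 42 of 76 members were above 0.8, led by Mrpl20 (0.93), Mrps33 (0.93) and Mrps21 (0.93). The spread within groups was similar to that of other genes, with a median SD of 0.32 on the log2 scale over the members and 0.36 over all genes. It was smallest for Mrpl48 (0.13) and Mrps25 (0.13) and largest for Mrpl54 (0.50) and Mrpl53 (0.49).

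**Figure D5:**
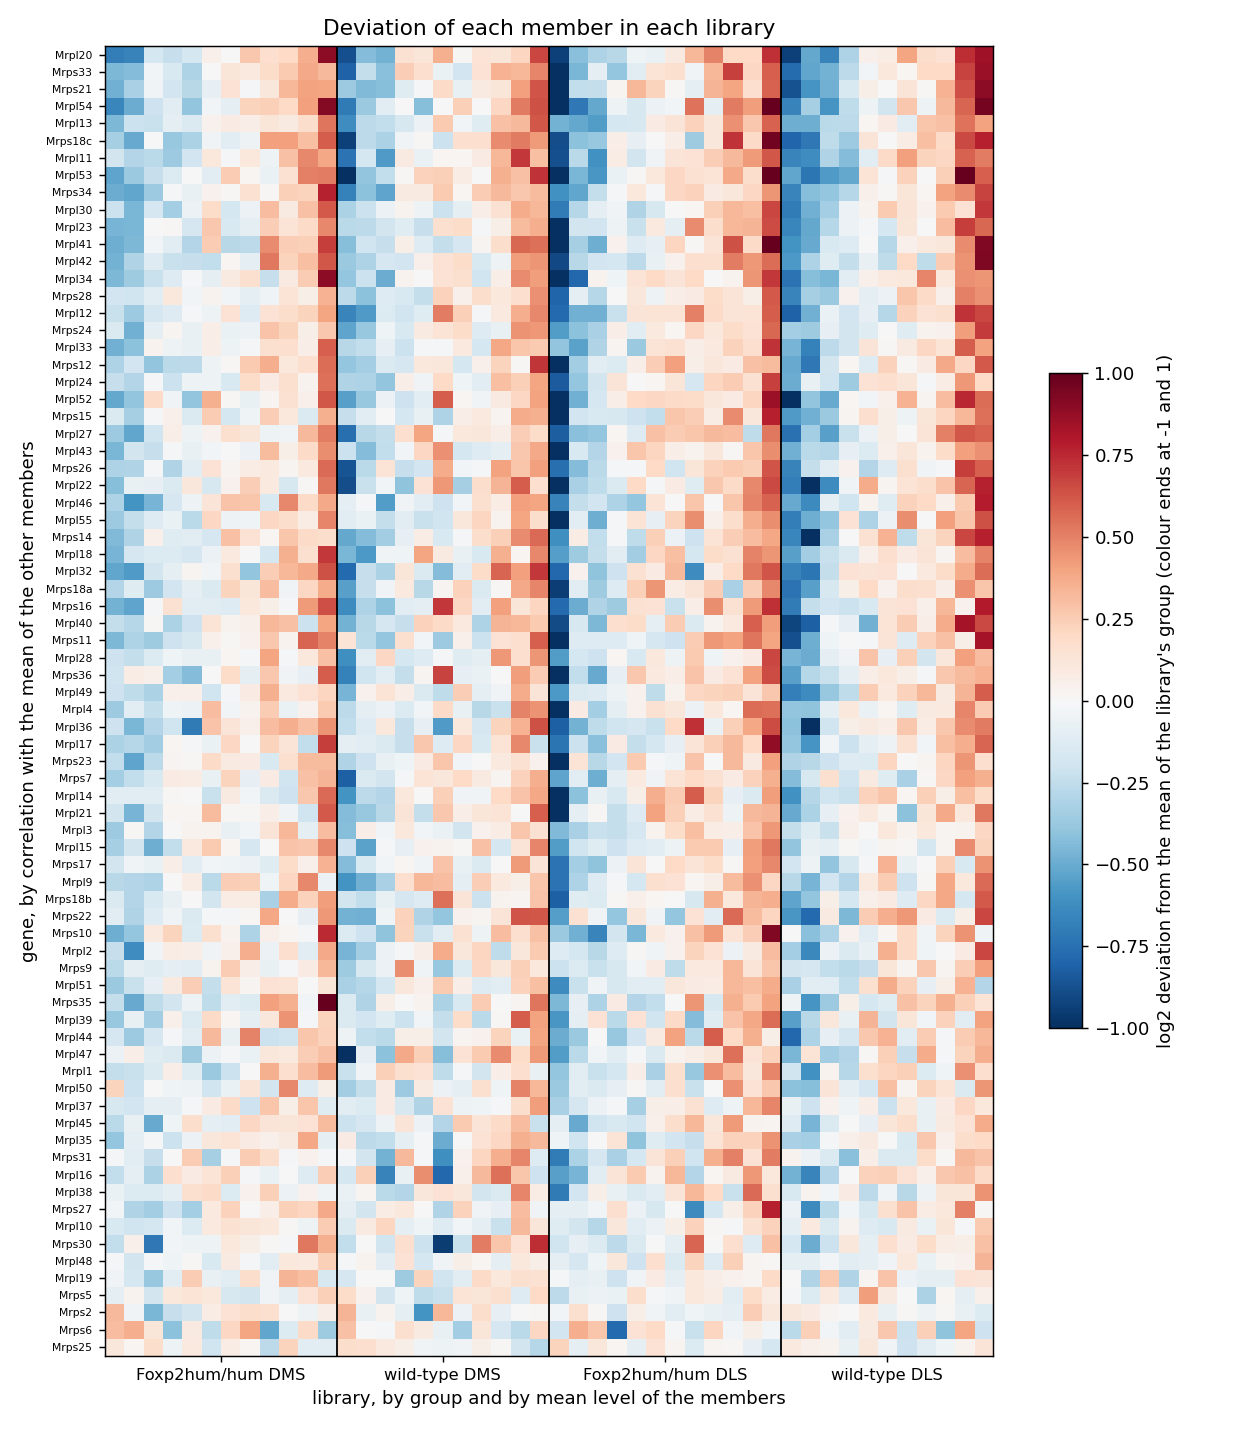
Deviation of log2(normalised read count + 1) of each member from its group mean in each of the 46 libraries, with members ordered by their correlation with the mean of the others (from 0.93 at the top to -0.51 at the bottom) and libraries ordered within each group by the mean of the members. Most rows run from blue at the left to red at the right of each group, and Mrps2, Mrps6 and Mrps25 at the bottom do not.

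Of the members, 3 did not follow the rest: Mrps25 (r -0.51), Mrps6 (-0.14) and Mrps2 (-0.09). Mrps25 overlaps Nr2c2, a nuclear receptor gene on the opposite strand whose value is 112% of its own, and followed Nr2c2 with r 0.69. Mrps6 contains Slc5a3, a myo-inositol transporter gene worth 57.3% of its value, and followed it with r 0.78. Both partners themselves ran against the mean of the members, Nr2c2 with r -0.93 and Slc5a3 with r -0.60. Whether reads of the shared stretch account for the r of either pair was not tested. Mrps2 has no overlapping gene. Mrps5 (0.27), Mrpl19 (0.37) and Mrpl48 (0.50) came next, and Mrpl19 did not follow AW146020 (r -0.09). The head-to-head neighbours Mrpl46 and Mrps11, whose spans share 413 bp, followed each other with r 0.78. The upper quartile over all pairs of members was 0.73, and these neighbours followed the mean of the other members with r 0.85 and 0.83.

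The common movement of the members was shared in part with other short transcripts. Across the 19413 tested genes with a known exonic length, r with the mean of the members fell with that length (Spearman rho -0.52). The median was 0.41 in the 3505 genes up to 1 kb and -0.68 in the 1604 genes over 8 kb. Between them it was 0.30 at 1 to 2 kb, where 29 members lie, and 0.01 at 2 to 4 kb, where 20 lie. Genes of the members' length thus followed them less than the members followed each other (median r 0.82). Among the members themselves rho was -0.51, and their median exonic length was 1700.5 bp, against 2958 bp over the genes tested. The mean of the members also followed the mitochondrially encoded share of reads (r 0.54 and Spearman rho 0.52 over 46 libraries, r 0.45 without the 2 libraries farthest from the median), with r of 0.24 in Foxp2hum/hum DMS, 0.60 in wild-type DMS, 0.61 in Foxp2hum/hum DLS and 0.75 in wild-type DLS. It ran against the summed markers of astrocytes (r -0.82, rho -0.78, r -0.76 without 2 libraries) and of endothelium and mural cells (r -0.77, rho -0.77, r -0.70). With total reads r was 0.17. Which of these measures the common movement follows was not tested.

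Other genes were taken from 8 lists of symbols, which cover mitochondrial translation and transcription and also respiratory chain subunits and cytosolic ribosomal proteins. The 7 mitoribosomal proteins with other symbols, such as Dap3 and Chchd1, followed the mean of the members with r 0.97, the 79 respiratory chain genes by symbol with r 0.97 and the 76 cytosolic ribosomal proteins with r 0.94. The 21 assembly and rRNA modification factors had r 0.86, the 14 translation factors 0.70, the 14 transcription and RNA processing factors 0.34, the 2 mitochondrial rRNAs 0.31 and the 17 mitochondrial aminoacyl-tRNA synthetases 0.20. Between genotypes 0 genes of these lists passed in any comparison, and the median log2 difference in DMS and DLS was 0.13 and 0.19 for cytosolic ribosomal proteins, 0.12 and 0.15 for respiratory chain genes, 0.08 and 0.15 for assembly factors, and 0.08 and 0.12 for mitoribosomal proteins with other symbols. It was 0.04 and 0.02 for translation factors, 0.03 and 0.05 for the synthetases, 0.03 and -0.03 for transcription and RNA processing factors, and -0.07 and 0.07 for the rRNAs, beside 0.07 and 0.11 for the members.

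Between regions a few of these genes passed, in comparisons in which 18.1% of all genes passed in Foxp2hum/hum and 17.3% in wild-type mice. Tfb2m, a mitochondrial transcription initiation factor, fell in DMS in both genotypes (log2 -0.37 ± 0.09, adjusted p 0.00148 in Foxp2hum/hum; -0.43 ± 0.09, adjusted p 0.000528 in wild-type mice), as did Grsf1, an RNA-binding protein of mitochondrial RNA granules (-0.19 ± 0.06, adjusted p 0.0330; -0.31 ± 0.07, adjusted p 0.000510). In wild-type mice Tfb1m, which methylates the small rRNA, was lower in DMS (log2 -0.32 ± 0.11, adjusted p 0.0348), and Mtrf1l, a mitochondrial release factor, was higher (0.58 ± 0.16, adjusted p 0.00613). Of the 79 genes taken as respiratory chain genes by symbol alone, 1 was higher and 4 lower in DMS of Foxp2hum/hum mice. In wild-type mice 0 were higher and 2 lower, Atp5b and Atp5sl. Both sets of counts stand against those shares of all genes. The symbol does not show that each gene encodes a subunit of the chain. Atp5b, the catalytic beta subunit of ATP synthase, was lower in both genotypes (log2 -0.29 ± 0.05 and -0.26 ± 0.06). Of the 76 cytosolic ribosomal proteins, 1 was higher in DMS of Foxp2hum/hum mice (Rpl14, log2 0.36 ± 0.12) and 5 in wild-type mice, led by Rpl10 (0.41 ± 0.12), and none was lower, with medians of 0.21 and 0.27.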

How the data were processed

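The values are normalised signal: the authors divided each library's read counts by its DESeq size factor before they deposited the table; the submitters' processing notes name mm9, TopHat 1.4.1, bedtools and DESeq. Per the labels' protocols, RNA came from laser-captured tissue by a column kit and entered a protocol adapted to small amounts. Multiplied by the size factor, 100% of values came out whole within 0.01, which gave whole reads. No per-sample column was left unused.

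For the tests, limma 3.58.1 (R 4.3.3) was run on log2(value + 1) of the 19561 genes whose mean reached 10. It used 1 fit of 4 group means, eBayes with a trend, two-sided tests and Benjamini-Hochberg over all genes tested, with a threshold of 0.05. Fold changes are on that scale. The fit was tested on simulated data drawn for each gene separately. That trial lacked the common movement between libraries described above, so it does not show how the fit behaves under it. edgeR 4.0.16 and DESeq2 1.42.0 on recovered reads, 3 other scalings or weightings, covariates and left-out libraries were alternatives. Positions and exonic lengths came from GENCODE M1 (NCBIM37), promoter windows from RefSeq (GRCm38.p6).

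Named members were Mrpl19, those that passed, the 5 with the smallest p in each direction where fewer than 5 passed, the 6 highest and 6 lowest per kb of exon, lettered paralogues and members with large overlaps. The members, lists and tests were chosen with earlier results of these data known.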

Additional observations from a re-analysis of the deposited data

How the results depend on the processing

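No paired analysis was possible because the labels give no replicate numbers and do not tie libraries to animals. The count of members called by genotype, averaged genotype and interaction stayed at 0 under every alternative run. Between DMS and DLS of Foxp2hum/hum mice the count of 1 became 0 with no filter on low values, with libraries scaled to reads not mitochondrially encoded, and with Ttr or the mitochondrially encoded share as a covariate, and 2 with array weights; leaving out 1 library gave 0 to 2. In wild-type mice the count of 3 became 0 with that scaling, 1 with Ttr as a covariate, 1 with the compared groups alone, 2 in edgeR and 4 with the mitochondrially encoded share as a covariate (2 of them higher in DMS); leaving out 1 library gave 1 to 3. With that scaling, near-zero log2 differences turned sign for Mrpl37 (0.006) and Mrps25 (0.0109) between genotypes in DMS and for Mrpl19 between regions in Foxp2hum/hum mice (0.0375). Between genotypes in DLS, Mrpl19 turned with quantile normalisation (0.0003) and with Ttr as a covariate (0.0), and leaving out 1 library moved Mrpl19 over -0.0347 to 0.0239, Mrpl37 over -0.0745 to 0.0004 and Mrps27 over -0.1235 to 0.0049. With 1 library left out, the median over the members between regions in Foxp2hum/hum mice ran from -0.114 (without library 94, 11 members positive) to -0.0066 (without library 60, 35 positive), that between genotypes in DMS from 0.0321 (without library 72) to 0.0962 (without library 34), that between regions in wild-type mice from -0.0586 (without library 89) to 0.0181 (without library 51), that of the interaction from -0.0988 (without library 94) to 0.0161 (without library 89), and that between genotypes in DLS from 0.0524 (without library 89) to 0.175 (without library 94). The cause of these changes was not tested. Depth limited no member to fewer than 54 reads in a library. Of 786 results for named members under the alternatives, 765 kept direction and side of the threshold, and of 2852 with 1 library left out, 2804 did. Most of these results did not pass in the main fit, so their staying on that side says little about the calls. A call was lost in 13 results under the alternatives and in 36 with 1 library left out, all for Mrpl19, Mrpl16 or Mrps2. Each call was fitted under 13 alternatives and 46 times with 1 library left out.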
